A study of Equus caballus with 24 samples.

Results

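The genes described here were chosen by their measured levels in the “Remission Phase”: a gene was taken when the libraries of all 7 allergic horses lay above, or all below, the libraries of all 5 healthy horses. Of 30371 genes listed, 13597 were kept because 1 or more of the 24 libraries reached a CPM of 0.5, where CPM stands for counts per M counted reads. Levels were CPM scaled with TMM factors, which adjust library totals for composition, and were compared as log2(CPM + 4). In 113 genes (0.831% of the genes kept) all allergic horses were above all healthy horses, and in 77 genes (0.566%) all were below. Genes in which the change between phases had a single sign in all 12 horses were then left out, 3 of the higher and 7 of the lower genes, as were 2 higher genes by their identifiers. This left 178 genes, 108 higher and 70 lower in allergic horses. Since the “Remission Phase” values chose these genes, the group differences in that phase are a description and were not tested.

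The cells were IgE-binding monocytes, sorted from blood as CD14low/IgE+/MHCIIhigh/CD16-/CD163- cells and frozen before RNA extraction. All horses were Icelandic horses of mixed genetic background that shared pastures, vaccination, deworming and exposure to biting midges. The allergic group had naturally occurring seasonal hypersensitivity to Culicoides midges, and the healthy group had none. Each horse was sampled in January or February, the “Remission Phase”, without midges or clinical signs, and in August or September, the “Clinical Phase”, when all horses were exposed and the allergic horses had clinical signs. Sampling ran over several weeks in each phase, a few horses a day, and the day of each horse was not used here. The healthy horses were mares. The allergic group held a gelding besides mares, and its mares were older in median than the healthy mares. The age ranges overlapped, but age is not given per library, so age and group cannot be told apart here. Horses are named by the codes of their libraries, with A1 to A7 being allergic and H1, H2, H4, H6 and H7 healthy.

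Monocytes can carry IgE on their surface through the high-affinity IgE receptor FcεRI, which is better known from mast cells and basophils. Allergen that crosslinks receptor-bound IgE triggers release of mediators from mast cells and basophils and changes cytokine secretion in monocytes. In Culicoides hypersensitivity, IgE against salivary proteins of the midges is formed, and itching dermatitis returns with each midge season.

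The deposited files pair none of the identifiers with a gene symbol, so the genes are described by their levels, and 4 of them are named by identifier. For the same reason the labelled cell type could not be checked against marker genes, and no sequence is shown. In the sorted but bulk samples, fewer cells of a type and less RNA per cell cannot be told apart.

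The total count per library ran from 17558184 to 40404429 in the “Remission Phase” and from 14493071 to 24832163 in the “Clinical Phase”. One allergic library, that of horse A6 in the “Remission Phase”, stood apart from the rest. It had the lowest total of that phase, 17558184, and 11802 genes with a count, while the other 6 allergic “Remission Phase” libraries had 13130 to 13877. Its TMM factor of 0.737 was also the lowest, with 0.909 as the next. The “Clinical Phase” library of the same horse had 13902 genes with a count and a factor of 0.915.

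The 108 higher genes were mostly well expressed. Their median level was 69.3 CPM in allergic and 53.1 CPM in healthy horses in the “Remission Phase”, with means per gene that reached 2942 CPM in allergic horses. The 70 lower genes had a median of 14.4 CPM in allergic and 20.8 CPM in healthy horses, and their highest mean in healthy horses was 138 CPM. Across all genes kept, these medians were 12.4 and 12.5 CPM. A mean level of at least 10 CPM over the 24 libraries was reached by 92 of 108 higher genes (85.2%) and by 44 of 70 lower genes (62.9%), against 53.4% of all genes kept. Under 1 CPM lay 4 of the higher and 11 of the lower genes, against 21.8% of all genes kept. A count of 0 occurred in at least 1 library in 5 higher and 11 lower genes. A gene with a count of 0 in both groups in the “Remission Phase” cannot be separated. The rule itself thus disfavours barely detected genes, which bears on these shares.

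The separation was complete by construction, but its size was small in most genes. The group means of the higher genes differed by 0.11 to 0.94 on the log2(CPM + 4) scale, with a median of 0.38. For the lower genes the difference ranged from -0.72 to -0.04, with a median of -0.40, and the median over all genes kept was -0.01. A difference of at least 0.5 in size was present in 28 of 108 higher and 16 of 70 lower genes. Among genes of at least 1 CPM, the larger group mean was 1.41 times the smaller for the median higher gene and 1.43 times for the median lower gene. The empty space between the nearest libraries of the groups was narrower still, with a median of 0.04 for the higher and 0.05 for the lower genes. The widest gap was 0.22 in the higher and 0.23 in the lower direction.

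Several genes lay close to the limit of the rule. In the higher gene just inside it, the lowest allergic library had 17.4247 CPM and the highest healthy library 17.4212 CPM. In the gene just outside, the lowest allergic library had 23.3162 CPM and the highest healthy library 23.3191 CPM. Thus the order of a single pair of libraries decided these cases. The lower gene just inside was barely detected, with 0 to 0.366 CPM in allergic and 0.368 to 1.03 CPM in healthy horses. A count of 0 allowed up to 0.0742 to 0.171 CPM, before TMM scaling, in the allergic “Remission Phase” libraries, taken as 3 counts of the library total and for counting error only. In the lower direction just outside, the highest allergic library had 50.7538 CPM and the lowest healthy library 50.7486 CPM.

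Horse A6 had the most extreme of the allergic “Remission Phase” values in 89 of 108 higher genes (82.4%) and in 47 of 70 lower genes (67.1%). Over all genes kept, A6 was the highest allergic library in 28.9% and the lowest in 34.5%. The rule chose the genes on these same values, those of A6 included, so these shares are a description and were not tested. Its level exceeded the mean of the other 6 allergic horses by a median of 0.63 in the higher genes and differed by -0.47 in the lower genes, against -0.04 over all genes kept. Without A6, the median difference between groups was 0.30 instead of 0.38 in the higher genes and -0.30 instead of -0.40 in the lower genes. A6 therefore enlarged the differences, but it was the allergic library nearest to the healthy group in 0 of the higher genes and 1 of the lower genes. The part of depth and library composition in the values of A6 was not tested. RNA integrity, as measured for the study, was below the top of its scale in some allergic and in no healthy “Remission Phase” samples, and its part was not tested either.

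The level of the genes in each library was summarized as the median over genes of log2(CPM + 4) minus the mean of the healthy “Remission Phase” libraries. For the higher genes, 6 allergic “Remission Phase” libraries lay between 0.21 and 0.32, and A6 reached 0.93. The 5 healthy libraries of that phase lay between -0.05 and 0.04. For the lower genes, the same 6 allergic libraries lay between -0.33 and -0.23, A6 at -0.85 and the healthy libraries between -0.03 and 0.02. The healthy libraries were thus closely grouped in that phase and the allergic libraries other than A6 nearly so. Because these values chose the genes, and the rule favours small spread within groups, this grouping is a description only.

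**Figure D1:**
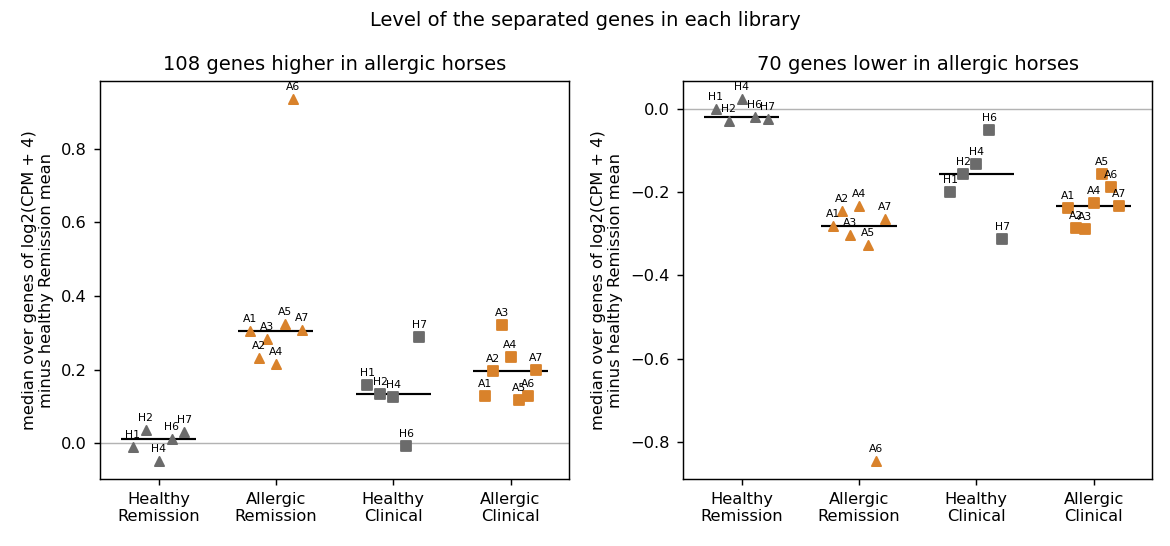
Median over the separated genes of log2(CPM + 4) minus the mean of the healthy “Remission Phase” libraries (y axis) for each library, by group and phase (x axis), with 108 genes higher in allergic horses on the left and 70 lower genes on the right; each point is 1 horse and the bar is the group median. In the “Remission Phase” the groups are apart and A6 lies at 0.93 and -0.85, and in the “Clinical Phase” the healthy horses spread from -0.01 to 0.29 and from -0.31 to -0.05 and overlap the allergic horses.

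The tight grouping of the healthy horses was also seen gene by gene. The SD of log2(CPM + 4) among healthy “Remission Phase” libraries had a median of 0.08 over the higher and 0.09 over the lower genes, against 0.13 over all genes kept, a quantity the rule itself favours when it is small. In the “Clinical Phase”, which the rule did not use for the separation, the healthy SD had a median of 0.19 for the higher and 0.20 for the lower genes, against 0.18 over all genes kept. The allergic SD in that phase was 0.19 and 0.22, against 0.20. So in the “Clinical Phase” the SD of these genes was near that of all genes kept. The levels differed, with allergic medians in that phase of 60.7 CPM for the higher and 15.8 CPM for the lower genes. Over all genes kept that median was 12.2 CPM, and genes of like level were not compared.

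Levels of different genes were also compared within groups. In the “Remission Phase”, the deviations of 2 higher genes from their group means had a median correlation of 0.65 over the 12 libraries, and those of 2 lower genes 0.35. A higher and a lower gene had a median correlation of -0.49, while 2 genes of all those kept had 0.00. Without A6 these medians were 0.24, 0.12 and -0.16, over 11 libraries. The “Clinical Phase” medians were 0.23, 0.12 and -0.14. The “Remission Phase” values chose the genes by their separation, and the “Clinical Phase” values entered the choice through the sign of the change between phases. The genes are not independent of one another. The correlations are across pairs of genes in the same libraries, which share depth and scaling.

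**Figure D2:**
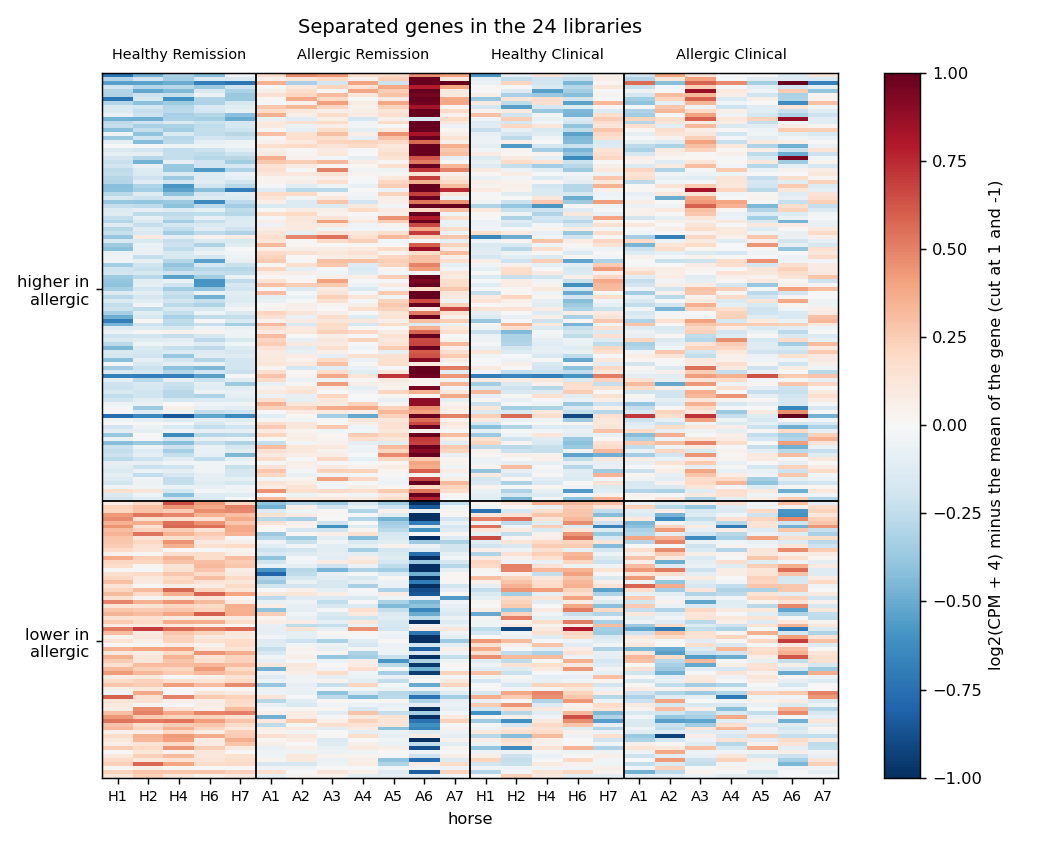
Heat map of log2(CPM + 4) minus the mean of each gene (color, limited to 1 in both directions) for 178 separated genes (rows) in 24 libraries (columns), by group and phase. The A6 “Remission Phase” column is the most extreme, and the block contrast between healthy and allergic horses on the left is not repeated in the “Clinical Phase” columns on the right.

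The “Clinical Phase” libraries, a second sampling of the same horses, took no part in the separation, and none of the 178 genes kept it. Of the higher genes, 0 of 108 had all allergic above all healthy libraries in the “Clinical Phase”, against 9 of 13597 genes kept (0.0662%). Of the lower genes, 0 of 70 had all allergic below all healthy libraries, against 13 of all genes kept (0.0956%). Complete separation in the opposite direction occurred in 0 genes of either group. Leaving out a horse relaxes the rule, so these counts and the background could then only stay or rise. When H7 was left out, 2 higher genes and 1 lower gene were separated the same way, against 0.206% and 0.243% of all genes kept. Without A7, 1 lower gene was, against 0.177% of all genes kept. Of the genes left out after the separation, 1 of the 2 higher genes left out by identifier was also separated in the “Clinical Phase”, and 0 of 3 higher and 0 of 7 lower genes left out by the sign of their change. With backgrounds this low, a count of 0 in groups of this size is near the background.

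The direction of the group means was kept more often than the separation. The allergic mean was above the healthy mean in 86 of 108 higher genes (79.6%), against 51.9% of all genes kept. It was below the healthy mean in 49 of 70 lower genes (70.0%), against 48.1% of all genes kept. The differences were small, with a median of 0.08 and a range of -0.13 to 0.67 for the higher genes, and a median of -0.07 and a range of -0.34 to 0.22 for the lower genes. Over all genes kept the median was 0.00. Without A6 the medians were 0.09 and -0.09. They moved by more than 1.5 times without H6, to 0.03 and -0.04, and without H7, to 0.11 and -0.10, and the median of the higher genes did so without A3, to 0.04. With library totals alone the medians were 0.04 and -0.09, and the direction was kept in 74 of 108 higher and 54 of 70 lower genes, against 44.1% and 55.8% of all genes kept. Because the genes are correlated within groups, these shares were not tested.

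**Figure D3:**
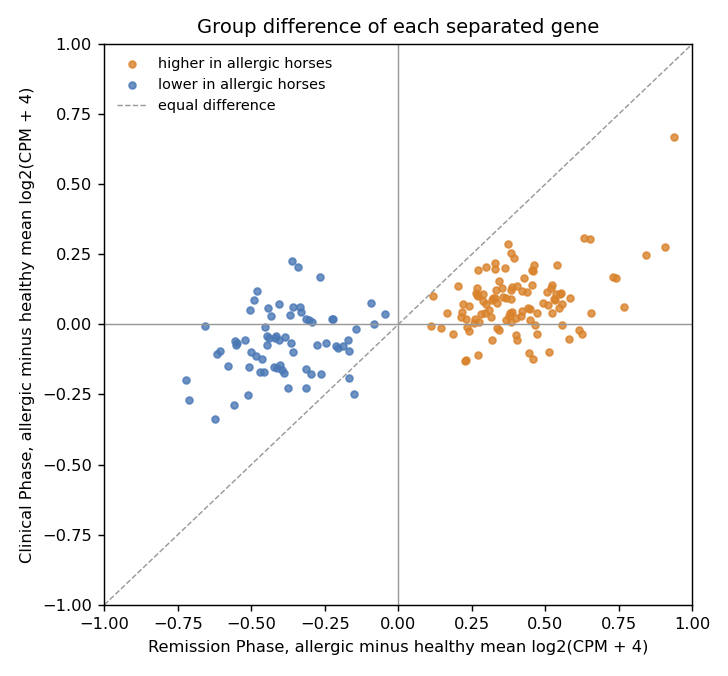
Allergic minus healthy mean of log2(CPM + 4) in the “Remission Phase” (x axis) and in the “Clinical Phase” (y axis) for each of 178 separated genes, with higher genes in orange, lower genes in blue and a dashed line of equal difference; the x axis values chose the genes. The y values center near 0.08 for the higher and -0.07 for the lower genes.

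The overlap in the “Clinical Phase” was present in the horses' medians too. For the higher genes, the healthy “Clinical Phase” libraries lay at -0.01 in H6, 0.13 in H4, 0.14 in H2, 0.16 in H1 and 0.29 in H7, on the scale of the per-library median. Of these 5 libraries, 4 were above every healthy “Remission Phase” library. The rule had chosen the genes for low values in the healthy “Remission Phase” libraries, so this count is a description and was not tested. The allergic “Clinical Phase” libraries had 0.12 at the lowest, 0.20 as the median and 0.32 at the highest, the latter in A3. A3 was the 1 allergic library above all healthy libraries in that phase, so the groups overlapped.

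For the lower genes, the healthy “Clinical Phase” libraries lay at -0.05 in H6, -0.13 in H4, -0.16 in H2, -0.20 in H1 and -0.31 in H7. All 5 were below every healthy “Remission Phase” library. Here the genes had been chosen for high values in the healthy “Remission Phase” libraries, so this count is likewise a description and was not tested. The allergic “Clinical Phase” libraries had -0.29 at the lowest, -0.23 as the median and -0.16 at the highest, and 0 of them were below all healthy libraries of that phase. Among the healthy horses, H7 lay farthest from the healthy “Remission Phase” mean in both sets of genes and H6 nearest to it, and for the lower genes H7 lay beyond every allergic horse.

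From the “Remission Phase” to the “Clinical Phase”, the median change over the higher genes of each horse was negative in 5 of 7 allergic horses and positive in 4 of 5 healthy horses. The allergic values were -0.81 at the lowest, in A6, -0.11 as the median and 0.04 at the highest. The healthy values were 0.17 in H1, 0.10 in H2, 0.17 in H4, -0.02 in H6 and 0.26 in H7. For the lower genes the median was positive in 6 of 7 allergic horses, from -0.04 in A2 to 0.66 in A6, and negative in all 5 healthy horses. The healthy values were -0.20 in H1, -0.13 in H2, -0.16 in H4, -0.03 in H6 and -0.29 in H7.

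The change of the group means had opposite signs in the groups. Its median over the higher genes was -0.18 in allergic horses, or -0.10 without A6, and 0.13 in healthy horses. For the lower genes it was 0.12 in allergic horses, or 0.06 without A6, and -0.19 in healthy horses. Over all genes kept the medians were 0.00 and 0.01. These changes use the values that chose the genes and were not tested.

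The midpoint of the gap between groups in the “Remission Phase” was used as a boundary for each gene. In the “Clinical Phase”, between 52 and 91 of the 108 higher genes, with a median of 68, were above it in an allergic horse. In the healthy horses, 64 genes were above it in H1, 54 in H2, 52 in H4, 25 in H6 and 81 in H7. Of the 70 lower genes, 39 to 54, with a median of 46, were below their boundary in an allergic horse, and 49 in H1, 37 in H2, 36 in H4, 24 in H6 and 59 in H7. In both sets H6 had fewer genes past the boundary than any allergic horse. Among the lower genes this was also so in H2 and H4, while H7 had more than any allergic horse. The boundary was set by the values that chose the genes, so these counts are a description and were not tested.

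On the TMM scale, the higher genes together made up 17072 to 19200 CPM in 6 allergic “Remission Phase” libraries, 30489 CPM in A6 and 13924 to 15311 CPM in healthy horses. They made up 16370 to 20169 CPM in the “Clinical Phase” in allergic and 14903 to 19006 CPM in healthy horses. The sum thus overlapped between groups in the “Clinical Phase”. With library totals alone, the “Remission Phase” sums lay closer together, at 16411 to 20344 CPM in 6 allergic horses, 22465 CPM in A6 and 15456 to 16379 CPM in healthy horses.

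The lower genes together made up 1353 to 1498 CPM in 6 allergic “Remission Phase” libraries, 832 CPM in A6 and 1837 to 1934 CPM in healthy horses. Their sum in the “Clinical Phase” was 1372 to 1650 CPM in allergic and 1362 to 1832 CPM in healthy horses. Healthy H7 then had the lowest sum of all 12 libraries. With library totals alone, the “Remission Phase” sums were 1262 to 1595 CPM in 6 allergic horses, 613 CPM in A6 and 1945 to 2146 CPM in healthy horses.

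Allergic and healthy horses were next compared in the “Clinical Phase” with edgeR's quasi-likelihood test over 13315 genes, in which all 178 genes were tested. None of them passed an adjusted p of 0.05, and 0 of all genes tested did (0%). At an unadjusted p under 0.05, the test counted 2 of 108 higher genes in the same direction (1.85%), against 1.94% of all genes tested. For the lower genes it counted 2 of 70 in the same direction (2.86%), against 1.4%, and 2 in the opposite direction. With counts of 2 these shares were near the background. DESeq2 counted 2 and 2 genes in the same direction, and limma voom with sample quality weights 2 and 4. Over all genes tested, 444 had an unadjusted p under 0.05 with edgeR and 426 with DESeq2, which called 9 genes at an adjusted p of 0.05, 0 of them among the 178. With limma voom and sample quality weights 505 genes had an unadjusted p under 0.05 and 0 were called. Without H7, edgeR called 1 of the 178 genes, which was the only call among 13267 genes tested. Without A1, A2, A3 or H4 it called 1, 1, 1 and 6 genes, 0 of them among the 178.

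The genes with the widest gap in the “Remission Phase” are given in each horse. ENSECAG00000023067 was among the higher genes. In the “Remission Phase” it had 15.4 CPM in H1, 18.99 in H2, 21.6 in H4, 19.8 in H6 and 27.2 in H7, and in allergic horses 32.2 at the lowest, 38.3 as the median and 40.6 at the highest. The healthy H7 came nearest to the allergic horses, and A6 was not the highest of them. Its “Clinical Phase” values were 17.5 CPM in H1, 26.1 in H2, 31.0 in H4, 25.1 in H6 and 29.6 in H7, against 24.2, 28.1 and 38.3 as the lowest, median and highest of the allergic horses. The groups overlapped, with 3 of 7 allergic horses above all healthy horses. By library totals alone, A3 (30.0 CPM) and A7 (31.9 CPM) were below H4 (32.1 CPM) in that phase. The log2 fold change in the “Clinical Phase” was 0.19 with an SE of 0.16 (edgeR, adjusted p = 1.00), and it was 0.08 without H1 and 0.11 without A2.

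ENSECAG00000000319, also higher, was expressed at a higher level. In the “Remission Phase” it had 171 CPM in H1, 184 in H2, 165 in H4, 190 in H6 and 190 in H7. The allergic horses had 215 at the lowest, 229 as the median and 504 at the highest, the latter in A6, with 249 as the next. Without A6 its group difference was 0.34 instead of 0.51 on the log2(CPM + 4) scale. Values in the “Clinical Phase” were 198 CPM in H1, 177 in H2, 183 in H4, 178 in H6 and 219 in H7, and 171, 194 and 279 as the lowest, median and highest of the allergic horses. The lowest value of that phase was thus in an allergic horse and all healthy values were exceeded in 2 of 7 allergic horses. A log2 fold change of 0.13 with an SE of 0.12 was obtained (edgeR, adjusted p = 1.00), and it was 0.05 without A3.

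ENSECAG00000021261 was among the lower genes. In the “Remission Phase” it had 16.97 CPM in H1, 18.99 in H2, 27.5 in H4, 22.9 in H6 and 19.1 in H7, and in allergic horses 5.57 at the lowest, in A6, 11.8 as the median and 13.9 at the highest. All allergic horses but A6 lay close together. Its “Clinical Phase” values were 16.4 CPM in H1, 17.97 in H2, 21.6 in H4, 21.2 in H6 and 20.5 in H7, and 14.3, 15.6 and 20.7 as the lowest, median and highest of the allergic horses. The groups overlapped, 4 of 7 allergic horses were below all healthy horses, and A6 was then the highest allergic horse. The log2 fold change of -0.24 had an SE of 0.13 (edgeR, adjusted p = 1.00).

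ENSECAG00000014116, also lower, had 31.4 CPM in H1, 33.0 in H2, 37.0 in H4, 35.1 in H6 and 38.4 in H7 in the “Remission Phase”. The allergic horses had 12.8 at the lowest, in A6, 22.5 as the median and 27.4 at the highest. The values in the “Clinical Phase” were 25.2 CPM in H1, 26.6 in H2, 24.6 in H4, 31.7 in H6 and 28.9 in H7, and 19.2, 25.4 and 31.1 as the lowest, median and highest of the allergic horses. Of the 5 healthy horses, 4 were then below the boundary of the “Remission Phase”, as were 5 of 7 allergic horses. Its log2 fold change was -0.11 with an SE of 0.13 (edgeR, adjusted p = 1.00). It was -0.05 without A3, -0.06 without H6, -0.07 without A2 and -0.06 with limma voom and sample quality weights.

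**Figure D4:**
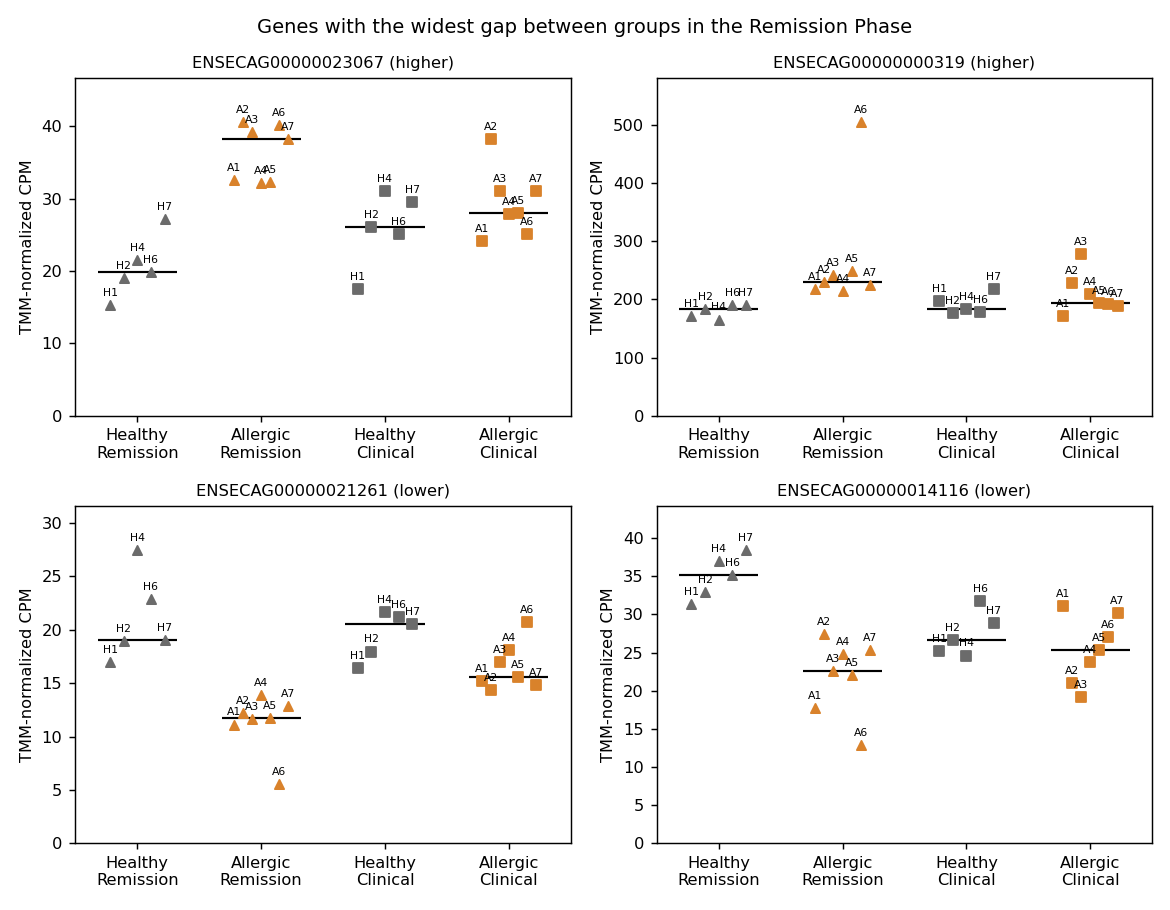
TMM-normalized CPM (y axis, from 0) of the 2 higher and 2 lower genes with the widest “Remission Phase” gap, by group and phase (x axis); each point is 1 horse and the bar is the group median. The groups are apart in the “Remission Phase”, by the choice of the genes, and overlap in all 4 genes in the “Clinical Phase”.

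The split between higher and lower genes depended on the scaling. With TMM factors, 108 of 178 genes (60.7%) were higher in allergic horses. With library totals alone, 29 genes were higher and 184 lower, so that 13.6% were higher. These included 29 of the 108 higher genes and 69 of the 70 lower genes given above. With RLE factors there were 100 higher and 80 lower genes (55.6% higher), and with TMM factors computed within each phase 107 and 70 (60.5% higher). Thinning all libraries to the lowest total gave 84 and 82, which included 76 of the 108 higher and 48 of the 70 lower genes. Under all 4 scalings, 25 of the higher and 68 of the lower genes were separated, and of the named genes only ENSECAG00000000319 was not, since its groups overlapped with library totals alone.

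The TMM factors themselves differed between groups in the “Remission Phase”. They were 0.737 to 1.06 in allergic and 1.06 to 1.11 in healthy horses, and 5 of 7 allergic libraries had a factor below every healthy library. The “Clinical Phase” factors were 0.915 to 1.06 and 0.963 to 1.09. With library totals alone, the median difference over all genes kept was -0.08 in the “Remission Phase”, against -0.01 with TMM.

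**Figure D5:**
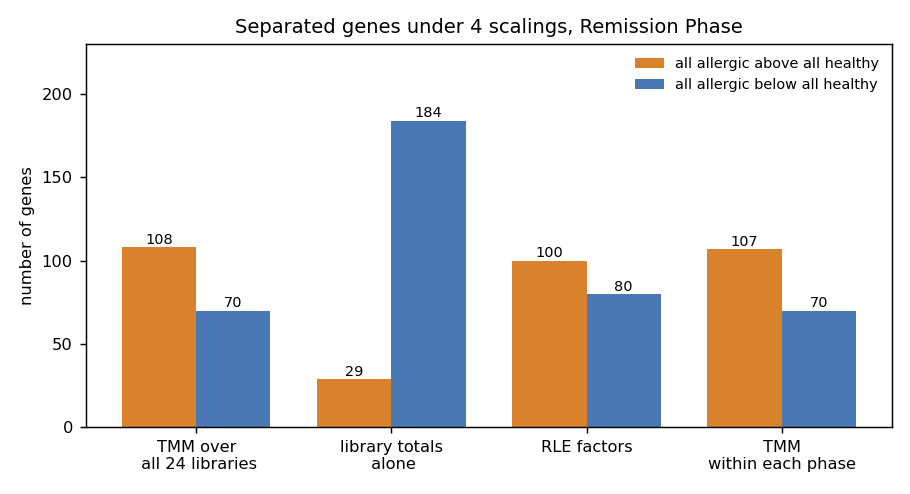
Number of genes (y axis) with all allergic above all healthy libraries (orange) or all below (blue) in the “Remission Phase” under each of 4 scalings (x axis). TMM factors give 108 and 70 genes, library totals alone 29 and 184.

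The number of separated genes also changed when single horses were left out. Fewer libraries must then be in order, so a rise is built into the rule, and its size was not tested. When H2 was left out with the levels unchanged, 226 genes were higher and 160 lower, and in H2 itself 47.8% of the former and 43.8% of the latter then lay on the healthy side. Without A4 the counts were 202 and 126, without A7 202 and 135, and without H7 164 and 113. Without A6 they were 129 and 76, of which A6 followed 83.7% and 89.5%. A4 was the allergic horse nearest to the healthy group in 38 of 108 higher and 18 of 70 lower genes. Among the healthy horses, H7 was the nearest to the allergic group in 31 higher genes and H2 in 19 lower genes.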

How the data were processed

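The authors sequenced poly-A RNA of sorted IgE-binding monocytes as directional single-end libraries. Per the submitters' processing notes, reads were trimmed with Trim Galore 0.6.0 and mapped to EquCab3.0 with STAR 2.7.0e, and the authors deposited raw counts per gene without normalization. How reads were counted, whether strand was used and which annotation release served is not given in the sources consulted, so overlapping, antisense and near-identical genes are uncertain. Of the identifiers, 0 matched the RefSeq gene table at hand, so the lists of coagulation, complement, IgE receptor, interferon and respiratory chain genes and of cell type markers could not be used.

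The software was R 4.3.3, with DESeq2 1.42.0, edgeR 4.0.16 and limma 3.58.1. Genes that reached 0.5 CPM in 1 or more of the 24 libraries were kept, TMM factors were computed over all 24, and CPM was TMM-normalized. Genes in a block of consecutive identifiers, of which 22 were kept, and 2 single genes were left out. The “Clinical Phase” was tested on its 12 libraries with edgeR's quasi-likelihood test and Benjamini-Hochberg adjustment over all genes that reached 0.5 CPM in 1 or more of them. The genes and lists were chosen with earlier results of these data known. The 2 genes per direction with the widest “Remission Phase” gap are named, since none was separated in the “Clinical Phase”. Alternatives were DESeq2, limma voom with sample quality weights, RLE factors, library totals, TMM within each phase, other filters, a pseudocount of 1, keeping genes with a single sign of the phase change, thinning to the lowest total of 14493071 counts, all 24 libraries in 4 groups, and leaving out each horse. The medians without A6 were added after seeing the data. The tests were tested on simulated data.

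The phases were paired by horse code. After group means were subtracted, both libraries of a horse correlated at 0.226 on average, against -0.0205 for libraries of different horses. The lowest was -0.146, and 9 of 12 were over 0.1. Of the library pairs, 0 were identical.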

Additional observations from a re-analysis of the deposited data

Results flagged for a closer look

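In each group of libraries, the gap of the highest or lowest value to its neighbour was compared with the range of the group. Of 44 groups of values tested, 9 held such a far value. In allergic horse A6 in the “Remission Phase” these were the number of genes with a count (11802, nearest 13130), the summed level of the higher genes (30489 CPM, nearest 19200) and of the lower genes (832 CPM, nearest 1353), and the per-library median of the higher genes (0.93, nearest 0.32) and of the lower genes (-0.85, nearest -0.33). ENSECAG00000000319 had 504 CPM in the same library (nearest 249) and ENSECAG00000021261 5.57 CPM (nearest 11.1). These values come from 1 library, and most use the measurements that chose the genes, so the share of groups with a far value is not set against chance.

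In healthy horses in the “Remission Phase”, H2 had 12934 genes with a count (nearest 13539), and H4 had a summed level of the lower genes of 1934 CPM (nearest 1850). For ENSECAG00000023067, all 7 allergic horses had a lower level in the “Clinical Phase” than in the “Remission Phase” and all 5 healthy horses a higher one, on the TMM scale. By library totals alone, H7 had 28.7 CPM in the “Remission Phase” and 28.5 CPM in the “Clinical Phase”, so not every healthy horse had a higher level. The mean change in allergic minus that in healthy horses was -0.56 on the log2(CPM + 4) scale, a difference that was not tested because the gene was chosen on the “Remission Phase” values.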

How the results depend on the processing

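With library totals alone, 29 genes were higher and 184 lower in allergic horses in the “Remission Phase”, against 108 and 70. The other 6 settings gave 84 to 111 and 70 to 82, with 84 and 82 after thinning to the lowest total, of which 76 and 48 were shared. With scaling factors recomputed, leaving out 1 horse gave 120 to 229 higher genes, more than 1.5 times the count without A4 (185), A7 (202), H2 (229) and H7 (165). It gave 85 to 157 lower genes, with 111 without A1, 144 without A4, 135 without A7, 106 without H1, 157 without H2, 123 without H6 and 113 without H7. Leaving out a horse lowers the number of libraries that must be in order.

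In the “Clinical Phase”, leaving out 1 horse gave 0 to 2 higher genes still separated, with 2 without H7, where 28 of all 13597 genes kept were (0.206%). It gave 0 to 1 lower genes, with 1 without A7, where 24 of all genes kept were (0.177%), and 1 without H7, where 33 were (0.243%). The genes with a kept direction of the means numbered 73 to 98 of 108 and 44 to 54 of 70, and the median differences were 0.03 (without H6) to 0.11 (without H7) and -0.10 (without H7) to -0.04 (without H6). Of higher genes at an unadjusted p under 0.05, 1 to 5 were counted, with 1 without A3, A6 or H4, 4 without H7 and 5 without A7. Of lower genes, 1 to 5 were counted, with 1 without A3 or H1 and 5 without A7. The count over all genes tested moved as well, from 444 to 478 without A3, 413 without A6, 426 without H1, 364 without H4, 464 without H7 and 562 without A7. At an adjusted p of 0.05, 0 to 1 were counted, with 1 without H7, the only gene called in that fit. With edgeR's filterByExpr, which left 168 of the 178 genes, 1 higher and 1 lower gene had an unadjusted p under 0.05, as had 315 of all 11501 genes tested. With limma voom and sample quality weights 4 lower genes did, as did 505 of all 13315 genes tested, against 2 each. In the other settings these results kept their direction and their side of the threshold, and for the 4 named genes the adjusted p was 0.809 to 1.00. The causes were not tested.

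The main test compares allergic with healthy horses, which are different animals, within 1 phase, so it holds no pairs. The fit of all 24 libraries in 4 groups held both libraries of each horse and took them as independent. Such libraries correlated at 0.226 on average, and no result from a fit with a term for the horse is given. The changes of each horse between phases use values that chose the genes and were not tested. The same animals were sampled in both phases, 7 against 5, so the “Clinical Phase” is no independent group of horses. Genes near the limit of the rule change with small shifts in scaling.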
